A study of Mus musculus with 24 samples.

Results

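The recurrently gained sites described here are places where H3K27ac, the acetylation of lysine 27 on histone H3, was listed in Prrx1-deleted mouse fibroblasts and not in their wild-type counterparts. They were chosen by measured values: the summits of 7 H3K27ac lists were widened by 250 bp on each side and merged, and a merged site was kept if at least 2 of the 3 SG lists held a summit in it and none of the 3 WT lists did. This left 3325 of 100984 merged sites, or 3.29% of them. ChIP-seq had been performed in 3 kinds of cultured fibroblasts. Mouse embryonic fibroblasts (MEF) came from embryos of day 10 to 13 and carried the strain label C57BL/6, MMTV-CAF were fibroblasts of mammary tumours that arise in MMTV-PyMT mice, where the polyoma middle T antigen is driven in mammary epithelium, with the strain label FVB/NJ, and wound-healing fibroblasts were taken from dorsal C57BL/6 skin at day 10 after wounding. Every culture, control or deleted, had been immortalised with papillomavirus E6 and E7. WT cells of the SG experiments carried the non-targeting guide SgNS, SG cells a CRISPR/Cas9 guide against Prrx1, and KI denotes MEF from a Prrx1 mutant mouse line (129S-Prrx1tm1Jfm/Mmmh), which the study describes as a lacZ insertion and which also carried the label C57BL/6. Whether the SG cells were clones or pools is not given in the sources used here. Each group had 1 library, so no test was made within a fibroblast type and every difference is between single lists. Only the KI list is a second mutant of MEF, and it was used for merging but not for choosing.

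H3K27ac marks active enhancers and promoters and is placed by the acetyltransferases p300 and CBP, whereas H3K4me3 marks the nucleosomes around active transcription start sites (TSS). An acetylated stretch usually lies on both sides of a nucleosome-poor centre where transcription factors bind. Prrx1 is a paired-related homeodomain factor of limb and craniofacial mesenchyme and of activated fibroblasts, and homeodomains prefer DNA with a TAAT core. The files gave 1 summit per peak with a −log10 p-value against input and no width, so a site absent from a WT list has no WT summit within 500 bp, which does not say that the WT chromatin there lacks acetylation.

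The sequences below show what lay under the strongest SG summit of 8 gained sites, with 100 bases on each side of it, on the plus strand of mm9 (NCBIM37). The Frmd8 window (chr19:5848955-5849155) and the S100a3 window (chr3:90390099-90390299) belong to the sites of highest score, a score that is the lowest percentile of the site's −log10 p among the SG lists that hold it. The Trim8 (chr19:46578429-46578629) and Kctd10 (chr5:114822018-114822218) windows had a Prrx1 summit of WT cells within 500 bp of the site. Emp3 (chr7:53175700-53175900) and Pex26 (chr6:121144384-121144584) lay in all 3 SG lists and in KI, and Zfp91 (chr19:12870981-12871181) and Plscr3 (chr11:69660380-69660580) lay within 1 kb of a TSS. Genes are the nearest protein-coding TSS. Capitals mark matches on either strand to any of 12 motif words listed with the motif results, and 4 of the 8 windows held none.
Frmd8: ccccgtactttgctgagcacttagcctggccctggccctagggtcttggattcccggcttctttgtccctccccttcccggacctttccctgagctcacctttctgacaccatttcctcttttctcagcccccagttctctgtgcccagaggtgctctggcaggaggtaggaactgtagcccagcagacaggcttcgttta
S100a3: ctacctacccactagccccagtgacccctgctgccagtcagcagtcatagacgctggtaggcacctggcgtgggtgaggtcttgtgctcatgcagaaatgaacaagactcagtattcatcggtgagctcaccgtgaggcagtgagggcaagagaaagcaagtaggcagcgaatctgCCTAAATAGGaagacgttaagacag
Trim8: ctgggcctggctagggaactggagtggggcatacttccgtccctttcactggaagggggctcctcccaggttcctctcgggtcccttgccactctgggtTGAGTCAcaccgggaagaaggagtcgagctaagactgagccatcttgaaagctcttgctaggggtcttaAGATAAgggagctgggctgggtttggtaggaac
Kctd10: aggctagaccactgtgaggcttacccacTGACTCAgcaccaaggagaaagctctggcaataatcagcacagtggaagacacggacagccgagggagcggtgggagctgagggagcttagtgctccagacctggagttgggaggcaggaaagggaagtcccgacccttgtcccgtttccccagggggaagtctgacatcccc
Emp3: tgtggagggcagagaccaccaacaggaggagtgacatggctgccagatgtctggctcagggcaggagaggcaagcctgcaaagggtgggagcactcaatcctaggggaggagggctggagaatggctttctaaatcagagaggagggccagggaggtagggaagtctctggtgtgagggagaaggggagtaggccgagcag
Pex26: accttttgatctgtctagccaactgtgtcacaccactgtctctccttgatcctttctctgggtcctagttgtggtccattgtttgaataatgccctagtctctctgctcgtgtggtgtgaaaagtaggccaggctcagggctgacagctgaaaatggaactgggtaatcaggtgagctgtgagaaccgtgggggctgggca
Zfp91: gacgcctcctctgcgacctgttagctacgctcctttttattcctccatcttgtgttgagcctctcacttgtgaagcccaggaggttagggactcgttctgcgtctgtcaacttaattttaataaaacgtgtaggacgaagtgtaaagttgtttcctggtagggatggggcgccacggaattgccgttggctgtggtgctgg
Plscr3: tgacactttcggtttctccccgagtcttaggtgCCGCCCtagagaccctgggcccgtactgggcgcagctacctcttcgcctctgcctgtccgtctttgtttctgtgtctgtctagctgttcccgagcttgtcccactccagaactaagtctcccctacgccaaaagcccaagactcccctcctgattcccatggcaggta

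In the S100a3 window the match was a CArG box, the word bound by serum response factor. Trim8 carried the AP-1 word TGANTCA directly at its summit and a GATA word 68 bases away, Kctd10 carried the AP-1 word 72 bases before its summit, and Plscr3 carried the GC-box word CCGCCC. No window of the 8 held TAATTA.

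To show DNA under Prrx1 itself, the next windows are centred on the WT Prrx1 summit of MMTV-CAF at 3 such sites, chosen as the highest-scoring ones whose window held the homeodomain word TAATTA, which is in capitals. The windows are those of Trim8 (chr19:46578695-46578895), Wls (chr3:159503005-159503205) and Nfatc4 (chr14:56442798-56442998), on the plus strand of mm9. These Prrx1 summits had −log10 p of 11.0, 5.59 and 6.45 and lay 266, 279 and 18 bp from the SG acetylation summit.
Trim8 at Prrx1: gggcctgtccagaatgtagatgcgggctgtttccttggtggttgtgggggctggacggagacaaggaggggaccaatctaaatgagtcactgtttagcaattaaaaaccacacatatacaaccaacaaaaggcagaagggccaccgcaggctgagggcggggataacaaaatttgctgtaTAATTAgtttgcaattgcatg
Wls at Prrx1: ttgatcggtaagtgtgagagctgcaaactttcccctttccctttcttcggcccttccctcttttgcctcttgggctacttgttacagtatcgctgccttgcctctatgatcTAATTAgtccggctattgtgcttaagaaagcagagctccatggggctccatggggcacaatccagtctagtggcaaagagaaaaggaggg
Nfatc4 at Prrx1: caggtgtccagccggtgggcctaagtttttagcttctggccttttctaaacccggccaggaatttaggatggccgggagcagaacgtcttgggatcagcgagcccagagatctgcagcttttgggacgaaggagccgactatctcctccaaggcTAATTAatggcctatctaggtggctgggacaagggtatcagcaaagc

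The gained sites fell unevenly over the fibroblast types. MMTV-CAF and wound-healing fibroblasts alone shared 1343 of them (40.4%), MEF and MMTV-CAF 1037 (31.2%), MEF and wound-healing fibroblasts 629 (18.9%), and all 3 types 316 (9.50%). The mirror set, sites in at least 2 WT lists and no SG list, held 2099 sites, 2.08% of all merged sites, so that 1.58 gained sites were listed for each site of the mirror set. This ratio was 1.03 for MEF and MMTV-CAF, 1.37 for MEF and wound-healing fibroblasts, 2.88 for MMTV-CAF and wound-healing fibroblasts, and 1.90 for all 3. The excess thus stood mainly in the MMTV-CAF and wound-healing pair.

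**Figure D1:**
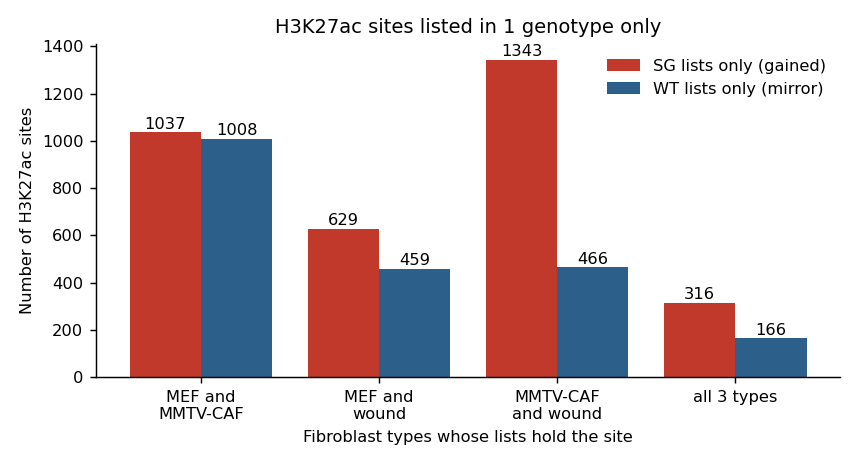
Number of H3K27ac sites (vertical axis) listed in 1 genotype only, by the fibroblast types whose lists hold them; red bars are gained sites (SG lists only) and blue bars the mirror set (WT lists only). The 2 bars are nearly level for MEF with MMTV-CAF (1037 and 1008) and farthest apart for MMTV-CAF with wound-healing fibroblasts (1343 and 466).

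The sizes of the lists moved with this excess. The H3K27ac lists held 44918 summits in MEF WT and 43019 in MEF SG. MMTV-CAF had 53873 in WT and 61603 in SG, wound-healing fibroblasts had 33465 in WT and 43058 in SG, and KI had 29325. The SG list was thus the longer one in MMTV-CAF and wound-healing fibroblasts and the shorter one in MEF. With the 6 WT and SG lists cut to their 33465 strongest summits, 1851 gained sites stood against 1805 sites of the mirror set, a ratio of 1.03. Without the wound-healing fibroblasts the 2 remaining types gave 1807 gained sites and 1874 of the mirror set, a ratio of 0.96. Of the sites in 2 or more SG lists, 9.06% (Wilson 95% interval 8.77% to 9.35%) had no WT summit, and of those in 2 or more WT lists 6.17% (5.92% to 6.44%) had no SG summit. These intervals cover counting error over sites only, as do all others below. Library depth is unknown, and its part in the list sizes was not tested.

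Gained sites were acetylated weakly by the measure of their own lists. Their median −log10 p was 11.5 in the SG list of MEF (1982 sites), 12.7 in that of MMTV-CAF (2696 sites) and 10.7 in that of wound-healing fibroblasts (2288 sites), where all summits of these lists had medians of 21.2, 17.8 and 16.3. Sites in 2 or more SG lists that also had a WT summit, called shared sites here, had medians of 33.6, 33.3 and 23.9. The mirror set was as low, with medians of 12.1, 12.48 and 11.0 in the 3 WT lists. The score of a gained site had a median of 16.7 and quartiles of 7.26 and 29.4, and 37 sites (1.11%) scored 75 or more. A few sites reached high values, up to 135, 102 and 108 in the 3 SG lists. Across gained sites the −log10 p in the lists of a pair were loosely related, with Spearman rho of 0.18 (MEF and MMTV-CAF, n = 1353), 0.23 (MEF and wound-healing fibroblasts, n = 945) and 0.16 (MMTV-CAF and wound-healing fibroblasts, n = 1659), against 0.71, 0.72 and 0.67 across shared sites. These are correlations over sites, which share their libraries.

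Most gained sites stood beside acetylation that the WT lists did hold. The nearest WT summit was at a median of 1353 bp from an SG summit of the site (quartiles 742 and 7648 bp). For 1300 sites (39.1%) it lay between 500 and 1000 bp, for 629 (18.9%) between 1 and 2 kb, for 390 (11.7%) between 2 and 5 kb, for 268 (8.06%) between 5 and 10 kb and for 738 (22.2%) farther than 10 kb. The mirror set lay nearer to the other genotype, with a median of 919 bp to the nearest SG summit, and 14.6% of it (13.1% to 16.2%) was beyond 10 kb, against 22.2% (20.8% to 23.6%) of gained sites. The SG lists were the longer ones in MMTV-CAF and wound-healing fibroblasts, and the part of list length in these distances was not tested. Strength was lowest at middle distances: the median score was 17.5 for sites within 1 kb of a WT summit, 13.9 at 1 to 2 kb, 13.6 at 2 to 5 kb, 14.9 at 5 to 10 kb, 18.02 at 10 to 50 kb and 21.0 for the 218 sites beyond 50 kb. At the edge of the rule, 384 gained sites had their nearest WT summit at 501 to 600 bp and a median score of 18.4, and 100 sites in 2 or more SG lists missed the rule with a WT summit at 401 to 500 bp and a median score of 17.9. A KI summit was present at 11.5% of the former and 23% of the latter.

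**Figure D2:**
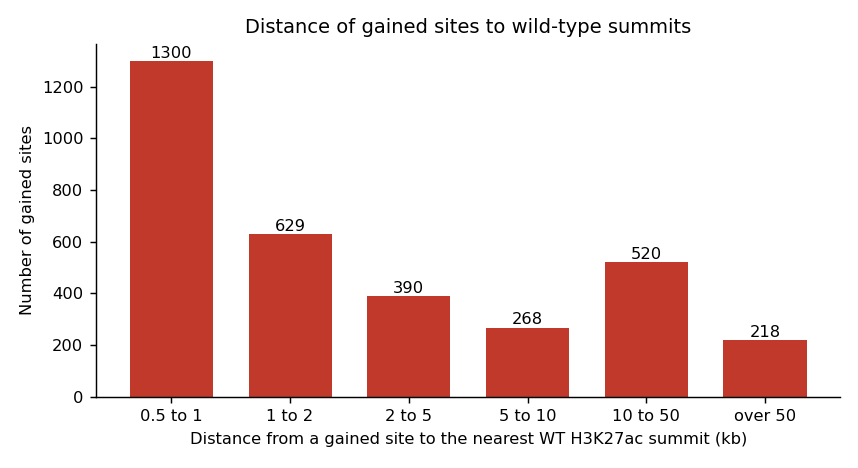
Number of gained sites (vertical axis) by the distance in kb from an SG summit of the site to the nearest H3K27ac summit of any WT list (horizontal axis, unequal bins). The first bin holds 1300 sites and starts at the 0.5 kb that the rule sets, and the last holds the 218 sites beyond 50 kb.

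The 12 gained sites of highest score showed this neighbourhood plainly. The strongest lay 26.2 kb from the TSS of Frmd8, a FERM-domain protein that binds iRhom and supports shedding of cell-surface ligands (chr19:5848805-5849342). Its −log10 p was 135 in MEF SG, 104 in wound-healing SG and 32.5 in KI. It was not listed in MMTV-CAF SG, and a WT summit lay 1102 bp away. The S100a3 site (chr3:90389949-90390563, intergenic) reached 126 in MEF SG and 102 in MMTV-CAF SG, beside 36.1 in KI, next to a gene of the calcium-binding S100 family. Ankrd1, a nuclear ankyrin-repeat protein known as a YAP and TEAD target, had a site 10.2 kb from its TSS (chr19:36204168-36204757) with 113 in MEF SG and 81.1 in MMTV-CAF SG. A site in an intron of Kdm6b, the demethylase that removes methyl groups from H3K27 (chr11:69224307-69224814), had 91.3 and 79.2 in the same lists and no KI summit. The other 8 of the 12 lay nearest to Tubd1, Trim8, Zfp91, Tlcd2, Kctd10, Angptl2, Ank and Plscr3.

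Among these 12 the distance to a WT summit ran from 525 bp (Angptl2) to 2041 bp (Trim8), and none was in all 3 SG lists. A KI summit, which 26.1% of all merged sites had, was present in 8 of the 12, with −log10 p from 10.5 to 36.1, each lower than either SG value of its site. At 12 of 12 an MMTV-CAF WT H3K4me3 region covered the site, against 43.7% of all merged sites, 71.9% of shared sites and 35.3% of gained sites. The 5 sites of lowest score, nearest to Idh2, Cep68, Rae1, Grap and Rai14, each had an SG value between 5.04 and 5.25 in 1 list, just above the lowest value of 5.00 in the H3K27ac lists, and higher values in the others.

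**Figure D3:**
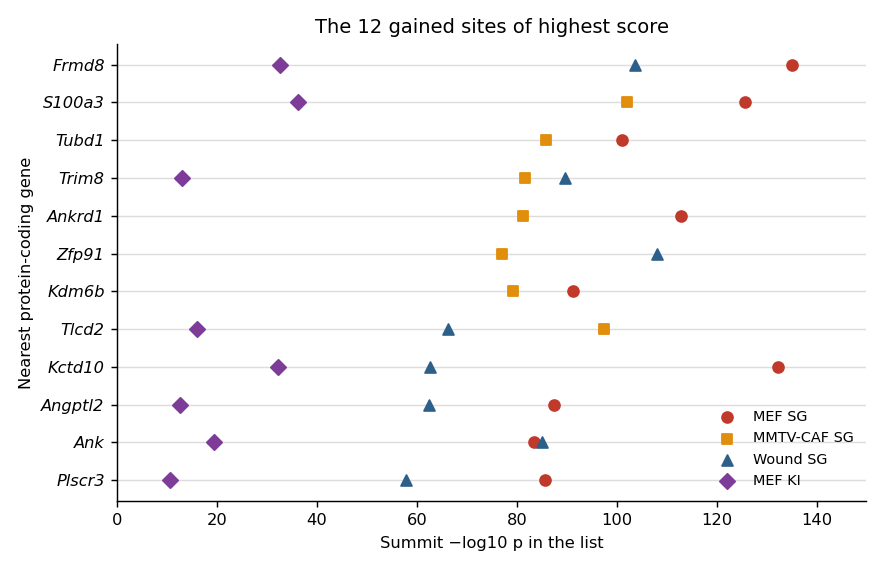
Summit −log10 p (horizontal axis) at the 12 gained sites of highest score, named by nearest gene (vertical axis), in the SG lists of MEF (circles), MMTV-CAF (squares) and wound-healing fibroblasts (triangles) and in KI (diamonds). A missing symbol means no summit in that list; the KI values, 10.5 to 36.1, lie left of every SG value.

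Gained sites far from any WT summit were also found in groups. Within 10 kb of one another, 649 gained sites formed 300 groups and 2676 stood alone. In 56 groups, with 120 sites, no member had a WT summit within 10 kb, and 7 of these groups had 3 or more members. Other sets of sites were not grouped in this way, so these counts have no background beside them. Neighbouring sites of a group may be parts of 1 acetylated stretch, since no widths were given. The places in the next sentences were picked after their values were seen. Slpi, a secreted protease inhibitor, had 3 sites (chr2:164208349-164215670) with −log10 p of 8.68, 55.3 and 44.0 in MMTV-CAF SG, of which the first also had 8.06 in wound-healing SG and the others 9.01 and 11.5 in MEF SG. Their nearest WT summits were 41.4 to 47.8 kb away, and the last of the 3 lay within 1 kb of the TSS. A group of 4 sites in 3.62 kb (chr5:90505507-90509131) was intergenic, 144 to 147 kb from the TSS of Cox18. It had 5.58 to 20.4 in MMTV-CAF SG, with 18.8 to 22.3 in wound-healing SG, and its nearest WT summit was 143 to 146 kb away. Egln3, a prolyl hydroxylase that acts on hypoxia-inducible factors, had 4 sites, of which 3 ran from an intron to its TSS (chr12:55288220-55304832), not all within 10 kb of one another, with 40.2, 48.7 and 54.5 in MMTV-CAF SG, beside 17.1, 17.5 and 13.2 in wound-healing SG. The first and last of them also had 6.98 and 13.1 in MEF SG, and WT summits were 24608 to 40661 bp away. The fourth, an intergenic site 109185 bp from the TSS, had 16.1 in wound-healing SG, beside 12.4 in MEF SG. None of the 11 sites of these 3 genes had a KI summit. In contrast, 3 sites in an intron of Pde4d, a cyclic AMP phosphodiesterase (chr13:109607406-109610878), had KI values of 10.9, 17.5 and 23.3, beside 8.41, 21.1 and 13.5 in MEF SG and 17.1, 8.07 and 17.1 in the wound-healing SG list.

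The KI list, from an independent mutant line, held a summit in few gained sites. It did so in 357 of 3325, or 10.7% (9.73% to 11.8%), where 26.1% of all merged sites had a KI summit. The share was 3.97% (3.74% to 4.21%) for sites in 1 SG list and no WT list, 52.4% (51.8% to 52.9%) for shared sites and 23.3% (21.6% to 25.2%) for the mirror set. With the lists at full length, KI summits thus occurred more often at sites that the SG lists lacked than at sites that they alone held. Among MEF lists only, the share was 13.0% (11.6% to 14.5%) for gained sites with a MEF SG summit, 7.45% (6.16% to 8.97%) for gained sites without one, and 24.6% (22.5% to 26.7%) for sites of the mirror set with a MEF WT summit. The KI list was the shortest of the 7, and at gained sites its median −log10 p was 10.5. When all 7 lists were cut to its 29325 summits, the share at gained sites was 23.0%. With 1 fibroblast type left out of the rule it was 15.6% (without MEF), 16.6% (without MMTV-CAF) and 18.2% (without wound-healing fibroblasts). For these settings the shares of all merged sites and of the mirror set were not computed, so the values have no background. KI cells differed from SG cells in the mutation, the origin of the embryos and the library, and these cannot be told apart.

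The share with a KI summit rose with the strength of the MEF SG summit. With the MEF SG list split by −log10 p into 4 bands of equal size, the share was, in the lowest band, 9.92% (8.25% to 11.9%) of 1038 gained sites, in the second 13.8% (11.5% to 16.5%) of 725, in the third 18.8% (13.9% to 25.04%) of 186 and in the highest 57.6% (40.8% to 72.8%) of 33. Sites held by MEF SG alone showed 4.52%, 8.10%, 18.6% and 38.5% in the same bands. Sites in both MEF SG and MEF WT showed 25.4%, 36.4%, 51.4% and 84.1%. In each of the 4 bands the interval for gained sites lay below that for sites in both lists. The highest band has no upper limit and held 33 gained sites and 10347 sites in both lists, so its shares are not at like strength.

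**Figure D4:**
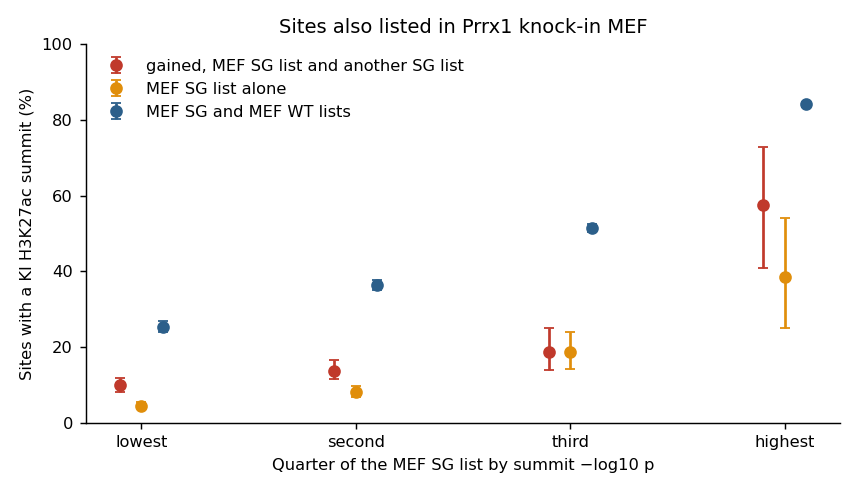
Share of sites with a KI H3K27ac summit (vertical axis, %) by band of the MEF SG list (horizontal axis, 4 bands of equal size by summit −log10 p) for gained sites with a MEF SG summit (red), sites in MEF SG alone (orange) and sites in MEF SG and MEF WT (blue); bars are Wilson 95% intervals. Red points rise from 9.92% to 57.6% and lie below the blue points in every band.

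Among the 46 gained sites in all 3 SG lists and in KI, the 10 of highest score included the promoter region of Emp3, an epithelial membrane protein family gene, where −log10 p was 119 in MEF SG, with 91.2 for MMTV-CAF, 46.6 for wound-healing fibroblasts and 21.5 in KI (chr7:53175158-53176078). Pex26, which anchors peroxisome import factors, followed with 22.2, 25.8 and 27.7 and a KI value of 5.36. An intron of Anxa2, a calcium-dependent membrane-binding annexin, had 33.8, 28.5 and 15.7 and a KI value of 17.1, and a site 83.0 kb from Hif1a, the oxygen-regulated factor, had 14.3, 32.2 and 16.8 and a KI value of 6.99. AI118078 had the only one of these 10 sites far from WT acetylation, with the nearest WT summit 34.0 kb away, SG values of 26.9, 45.4 and 14.2 and a KI value of 13.4. The other 5 lay nearest to 1810013L24Rik, Apbb2, Plk2, Lekr1 and Rnf11.

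WT Prrx1 summits lay near a smaller share of gained sites than of shared sites, and a larger share than of sites in 1 SG list and no WT list. Within 500 bp, MEF WT had one at 28 sites (0.84%, 0.58% to 1.21%) against 1.13% of all merged sites. MMTV-CAF WT had one at 110 sites (3.31%, 2.75% to 3.97%) against 6.19%, and wound-healing WT at 58 (1.74%, 1.35% to 2.248%) against 3.98%. In any type this came to 150 sites, or 4.51% (3.86% to 5.27%), where 8.98% of all merged sites, 16.0% (15.6% to 16.4%) of shared sites and 11.6% (10.3% to 13.1%) of the mirror set had one. Sites in 1 SG list and no WT list were lower, with 2.95% (2.75% to 3.16%) in any type, 0.39% for MEF and 1.73% for MMTV-CAF. The wound-healing share, 1.44% (1.30% to 1.59%), had an interval that overlapped that of gained sites. Of the 150, 118 had Prrx1 in 1 type, 18 in 2 and 14 in all 3, and 41 lay more than 2 kb from any WT acetylation summit. The difference from shared sites was seen at like strength: in the lower 3 of 4 bands of the gained sites' score 4.78%, 3.12% and 4.65% of gained sites had a Prrx1 summit, against 10.3%, 10.6% and 12.1% of shared sites in the same score ranges. In the highest band, which has no upper limit, the shares were 5.55% and 17.99%. Prrx1 summits may lie beside WT acetylation that the rule removes, and how far the rule itself lowers this share was not tested.

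Of the 110 sites with an MMTV-CAF Prrx1 summit, 100 had a summit in MMTV-CAF SG, 3.71% (3.06% to 4.49%) of all gained sites with one, and 10 did not, 1.59% (0.87% to 2.90%) of the rest. In MEF the shares were 0.71% (0.42% to 1.18%) with a MEF SG summit and 1.04% (0.62% to 1.74%) without, and in wound-healing fibroblasts 1.79% (1.32% to 2.42%) and 1.64% (1.03% to 2.61%), with overlapping intervals in both.

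The 10 strongest gained sites with Prrx1 lay nearest to 10 different genes. The Trim8 site, in an intron of this ubiquitin ligase (chr19:46578273-46578791), had 81.6 in MMTV-CAF SG, 89.7 in wound-healing SG, 12.9 in KI, and Prrx1 summits in both WT types with −log10 p of 11.0 and 10.4. At Wls, which carries Wnt ligands to the cell surface, a site over the TSS (chr3:159502236-159503369) had 93.7 in MEF SG and 66.0 in MMTV-CAF SG, beside 8.19 in KI, with an MMTV-CAF Prrx1 summit of 5.59. A site 42.2 kb from Lif, a cytokine of the interleukin-6 family (chr11:4209069-4209946), had 54.7 and 71.2 in MMTV-CAF and wound-healing SG, no KI summit, and Prrx1 summits of 10.0 and 7.30 in the same types. Nfatc4, a calcium-responsive factor, had a site within 1 kb of its TSS (chr14:56442666-56443368) with 45.9 and 47.0 in the same SG lists and the strongest Prrx1 summit of the 10, 28.0 in wound-healing WT. Kctd10, Ank, Socs5, Fam65b, Osbpl3 and Pdlim2 had the other 6, and no MEF Prrx1 summit lay at any of the 10.

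The homeodomain word lay near a minority of these Prrx1 summits. Of Prrx1 summits at gained sites, TAATTA was present within 100 bp of 13 of 28 (46.4%, 29.5% to 64.2%) in MEF, 40 of 112 (35.7%, 27.4% to 44.9%) in MMTV-CAF and 19 of 60 (31.7%, 21.3% to 44.2%) in wound-healing fibroblasts. Over all Prrx1 summits the shares were 69.1%, 35.45% and 41.9%, and at shared sites 37.3%, 22.3% and 19.97%. The AP-1 word was present at 21.4% (10.2% to 39.5%), 25.9% (18.7% to 34.7%) and 18.3% (10.6% to 29.9%) of Prrx1 summits at gained sites. In MEF this was 6 of 28 summits. Over all Prrx1 summits the AP-1 shares were 12.9%, 18.25% and 13.0%, and at shared sites 28.5%, 22.0% and 16.6%. Each interval at gained sites included the share at shared sites. The MEF and wound-healing intervals also included the share over all summits, and the MMTV-CAF interval lay just above it.

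Around the acetylation summits themselves most words were present at shares near those of all merged sites. Windows of 100 bp on each side of the strongest summit were searched on both strands for TAATTA for homeodomain factors, TGANTCA for AP-1, GGAATG for TEAD factors, TGTGGTT for RUNX factors, TTGCNNAA for C/EBP factors, CAGATGG for the E-box, ATCAAAG for TCF factors, AGATAA for GATA factors and CCGCCC for the GC box, and also for an NF-kappaB word, an NFI palindrome and the CArG box. Matches of different words overlapped in 13 gained sites (0.39%). At least 1 word was found at 41.9% of gained sites, 43.9% of all merged sites and 47.4% of the 6650 positions 2 kb to either side of the gained summits. TAATTA was present at 86 gained sites (2.59%, 2.10% to 3.18%), against 2.70% of all merged sites, 1.96% of shared sites and 5.62% of the positions 2 kb away. AP-1, the dimer of Fos and Jun proteins, had its word at 181 (5.44%, 4.72% to 6.27%), against 4.70%, 3.57% and 6.69%. For sites over 1 kb from a TSS the AP-1 shares were 5.82% at gained, 4.67% at shared and 5.29% at all sites. TEAD, RUNX, C/EBP, E-box, TCF and NF-kappaB words stood at 10.1%, 4.21%, 6.26%, 4.60%, 2.62% and 1.14% of gained sites, against 10.9%, 3.99%, 6.91%, 4.64%, 2.65% and 0.96% of all. The GATA word stood at 7.43% against 7.74%, and the CArG box at 0.78% against 0.88%. The NFI palindrome was in 0 of 3325 windows and in 0.02% of all. Windows that held TAATTA also had Prrx1 within 500 bp of their site more often, in 14 of 86 (16.3%, 9.95% to 25.5%) against 4.20% (3.56% to 4.95%) of the rest.

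The GC box was the word that differed most from shared sites. It stood at 7.01% (6.19% to 7.93%) of gained sites, 8.33% of all and 16.1% of shared sites. Within 1 kb of a TSS 24.6% of gained sites had it and elsewhere 4.58%. The median GC content of the windows was 50.2% at gained, 53.2% at shared and 49.8% at all sites, and the share of sites at a TSS moved in the same order for gained and shared sites.

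Gained sites were mostly distal, as all merged sites were. A protein-coding TSS (GENCODE vM1) lay within 1 kb of 402 of them (12.1%, 11.0% to 13.2%), against 18.7% of all merged sites, 37.6% of shared sites and 17.4% of the mirror set. Exons held 4.36%, introns 46.6% and intergenic sequence 36.9% of gained sites, against 3.76%, 41.3% and 36.3% of all merged sites. The median distance to a TSS was 14.3 kb, against 14.0 kb for all sites and 5.69 kb for shared sites. In the lower 3 bands of score the values were close to those of shared sites, with 9.33%, 10.8% and 12.45% of gained and 9.25%, 10.5% and 11.9% of shared sites near a TSS. The highest band has no upper limit, so its 15.9% and 48.8% are not at like score. Gained sites were found on all autosomes and the X chromosome, at 2.56% (chromosome 3) to 4.17% (chromosome 4) of the merged sites there.

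H3K4me3, which the rule did not use, was already present in WT cells at part of the gained sites. An H3K4me3 region of at least 1 WT type overlapped 1265 of them (38.0%). For MMTV-CAF the share was 35.3% (33.7% to 36.9%) in WT, against 43.7% of all merged sites, and 43.1% (41.4% to 44.8%) in SG, against 44.5%. In wound-healing fibroblasts it was 22.4% (21.0% to 23.8%) in WT, against 26.5%, and 28.7% (27.2% to 30.3%) in SG, against 30.7%. In MEF it was 22.3% (20.9% to 23.7%) in WT, against 27%, then 20.3% (18.9% to 21.7%) in SG, against 24.7%, and 13.0% (11.9% to 14.1%) in KI, against 20.6%. From WT to SG the share thus changed by 7.79 percentage points for MMTV-CAF, 6.32 for wound-healing fibroblasts and -2.02 for MEF, and over all merged sites by 0.79, 4.20 and -2.26 points. For MMTV-CAF it changed by -0.86 points at shared sites and by -7.81 in the mirror set, but by 7.65 at sites in 1 SG list and no WT list, close to the value at gained sites. For wound-healing fibroblasts the changes in these sets, in the same order, were 5.42, 4.95 and 4.03 points, a rise in the mirror set too. In MEF they were -2.39, -3.43 and -1.89 points. The numbers of H3K4me3 regions moved as the shares at gained sites did, from 27339 to 29166 in MMTV-CAF, from 16961 to 19641 in wound-healing fibroblasts and from 16089 to 14668 in MEF.

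The MMTV-CAF difference was found where that list had gained acetylation. Of the 2696 gained sites with an MMTV-CAF SG summit, 37.3% (35.5% to 39.2%) had H3K4me3 in WT and 47.2% (45.3% to 49.1%) in SG, with 404 sites under a region in SG alone and 137 in WT alone. Of the 629 without one, 26.7% and 25.4% had it. In wound-healing fibroblasts the shares were 23.8% and 32.2% of the 2288 sites with a summit in their SG list, and 19.2% and 21.0% of the 1037 without. In MEF they were 22.1% and 21.2% with a MEF SG summit, and 22.6% and 18.9% without. H3K4me3 and H3K27ac came from separate libraries of the same cells. Near a TSS, 77.6% of the gained sites were covered in MMTV-CAF WT and 82.1% in SG, and elsewhere 29.5% and 37.7%.

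**Figure D5:**
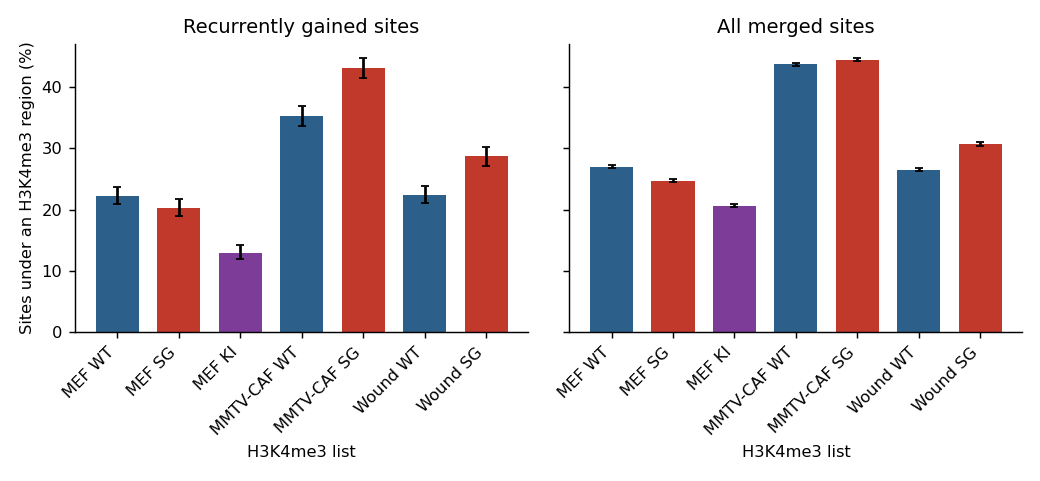
Share of sites under an H3K4me3 region (vertical axis, %) in each of the 7 H3K4me3 lists (horizontal axis), for the recurrently gained sites (left) and all merged sites (right); blue is WT, red SG and purple KI, and bars are Wilson 95% intervals. At gained sites MMTV-CAF rises from 35.3% to 43.1% and wound-healing fibroblasts from 22.4% to 28.7%, while MEF falls from 22.3% to 20.3% in SG and to 13.0% in KI.

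The 8 strongest gained sites within 1 kb of a TSS lay at Zfp91, Plscr3, Hoxb9, Wls, Emp3, Tm9sf3, Foxm1 and Ereg. At Foxm1, a factor of the G2 and M phases of the cell cycle, the −log10 p was 99.0 in MEF SG and 49.9 in MMTV-CAF SG, beside 21.7 in KI (chr6:128313026-128313654). H3K4me3 was present there in all 7 lists, with a fold over input from 3.99 in KI to 10.6 in wound-healing SG. At Ereg, the EGF receptor ligand epiregulin, the site (chr5:91502590-91503098) had 69.7 in wound-healing SG, 46.8 in MMTV-CAF SG and no KI summit, and Ereg was nearest to 3 further gained sites. At Hoxb9, a homeobox gene of posterior identity, the value was 79.2 in MMTV-CAF SG, beside 57.5 in wound-healing SG. Each of these 8 had a WT acetylation summit within 939 bp.

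The nearest genes of the gained sites numbered 2481, and 1940 of them were nearest to 1 site. Among those with most sites were Bcat1 with 11, Myc with 9, and Fam65b, Efna5 and Trp63 with 7 each, ahead of Camta1, Tns3 and Igf2bp2, also with 7, by their best score. The sites assigned to Bcat1, a transaminase of branched-chain amino acids, were 11 of the 41 merged sites nearest to it, and 7 of them lay in introns of its neighbour Sox5. In 5 of these 7, at chr6:144639349-144665140, the MMTV-CAF and wound-healing SG lists had −log10 p of 11.1 to 40.9 and 10.5 to 18.02, and the nearest WT summits lay 49954 to 61705 bp away. All 11 had summits in MMTV-CAF and wound-healing SG, 3 had one in MEF SG, and none had one in KI. The 9 sites nearest to Myc, the growth-promoting factor, were spread over its distal flank from 12.9 to 497 kb and made up 9 of 207 merged sites (4.35%), near the 3.29% of all sites, beside 10 sites of the mirror set.

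Fam65b, an inhibitor of RhoA, had 7 of 22 sites, 4 of them within 13.1 kb, and its strongest reached 73.7 in MEF SG and 42.4 in MMTV-CAF SG. Efna5, a ligand of Eph receptors, had 7 of 62, of which 4 intronic sites in MMTV-CAF and wound-healing SG had the nearest WT summit 7135 to 26999 bp away. Trp63, the p63 factor that defines basal epithelia, had 7 of 73, all in MMTV-CAF and wound-healing SG and none in MEF SG, with the highest MMTV-CAF SG value 58.2 in its intron.

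At Prrx1 itself, 1 gained site lay within 1 kb of a TSS (chr1:165219164-165219866), with 24.2 in MMTV-CAF SG, 20.8 in wound-healing SG and a WT summit 524 bp away, just past the limit of the rule. Peak lists do not show the edit made by the guide, so the deletion could not be checked from them, and 12 to 27 H3K27ac summits lay in or within 10 kb of the gene in the 7 lists, WT and mutant alike.

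Gene lists for this tissue, chosen with earlier results of these data known, were read as the share of their nearest merged sites that were gained, beside the 3.29% of all merged sites. For 5 lists the share was higher in value: 11 of 190 sites (5.79%, 3.26% to 10.1%) for adipogenic genes, 21 of 395 (5.32%, 3.50% to 7.99%) for inflammatory fibroblast genes, 13 of 251 (5.18%, 3.05% to 8.66%) for skeletal lineage genes, 25 of 564 (4.43%, 3.02% to 6.46%) for mesenchymal factors and 12 of 278 (4.32%, 2.49% to 7.39%) for Wnt and BMP genes. For 4 it was lower in value: 3 of 290 (1.03%, 0.35% to 2.997%) for myofibroblast contractile genes, 7 of 428 (1.64%, 0.79% to 3.34%) for matrix and matricellular genes, 13 of 654 (1.99%, 1.17% to 3.37%) for the TGF-beta pathway and 10 of 466 (2.15%, 1.17% to 3.90%) for collagens. AP-1 genes had 4 of 134 (2.99%) and the study's candidate master factors, which were picked from these samples, 12 of 356 (3.37%). The interval included 3.29% for all of these lists except the inflammatory list and the contractile list. The mirror set held 2.08% of all merged sites. Its share was 4.14% for contractile, 4.91% for matrix, 4.08% for collagen and 2.91% for TGF-beta sites, 1.58% for adipogenic and 0.80% for skeletal ones, but also 3.797% for the inflammatory list and 3.96% for Wnt and BMP genes, which were above 2.08% as their gained shares were above 3.29%. Mesenchymal factors, with 2.48%, were above both values as well. AP-1 genes had the highest mirror share of these lists, 5.97%, and the candidate master factors had 1.97%.

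Of the 18 inflammatory genes 12 were nearest to a gained site, where 2481 of the 15127 genes nearest to any merged site were. These 2 counts are not alike, since the 18 genes were nearest to 395 merged sites and the 15127 genes to 100984. A gene with more sites has more places for a gained one, so the share of sites above is the closer comparison. Ptgs2, the inducible cyclooxygenase, had 4 gained sites, led by a pair 97.0 and 98.5 kb away with 56.8 and 68.3 in MMTV-CAF SG, beside 21.2 and 17.1 in wound-healing SG. Lif had 3, and Csf1, the macrophage growth factor, had 3, the strongest in an exon with values of 31.0 in MEF SG and 35.3 in MMTV-CAF SG, with 7.56 in KI. Has2, the hyaluronan synthase, had 2, with 13.4 in MMTV-CAF SG at the stronger. The thrombospondin gene Thbs1 had 6 of the 7 gained sites of the matrix list, all 61.6 to 137 kb from its TSS and all in MMTV-CAF and wound-healing SG, and also 11 sites of the mirror set.

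Zfp423 and Runx3 had gained sites far from WT acetylation, and Plin2, Sox9 and Runx1 near it. Zfp423, which commits cells to the fat lineage, had 3 intronic sites with −log10 p of 63.8, 12.1 and 50.1 in MEF SG, beside 14.5, 10.5 and 9.32 in wound-healing SG. The last of them also had 8.87 in MMTV-CAF SG, with 27.1 in KI, and the nearest WT summits were 31.0, 198 and 168 kb away. Those 3 were of 9 merged sites nearest to Zfp423. Plin2, of the lipid droplet coat, had 2 sites, with 25.03 in MMTV-CAF SG, beside 21.7 in wound-healing SG, at the stronger, and WT summits 3210 and 1408 bp away. Runx3 had 3 of 15 sites, all 28.8 to 39.0 kb from WT acetylation, with 34.4, 18.5 and 15.3 in MMTV-CAF SG. Sox9, the cartilage factor, had 4 of 34, 66.3 to 319 kb from its TSS but 560 to 2151 bp from WT summits, and Runx1 had 4 of 88, 757 to 3570 bp from them.

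Among mesenchymal factors Tcf4 had 4 gained sites, with 17.0 in MMTV-CAF SG, 58.8 in wound-healing SG and 30.3 in KI at the strongest, near a TSS. Meis2 had 3 and Foxf2 2. Smad7 and Smad6, inhibitors of TGF-beta and BMP signalling, had 3 and 2, and the strongest Smad6 site, in an intron, had 55.8 in MMTV-CAF SG, 16.1 in wound-healing SG and 9.78 in KI, with WT Prrx1 summits within 500 bp. Col1a1 had 3 of 28 sites, where the strongest had 16.1 in MEF SG, beside 18.1 in wound-healing SG, and lay in an exon. With 3 more sites inside Col1a1 that were nearest to the TSS of Gm17329, and so not counted with the collagens, 2 of them made the largest group within 10 kb of one another, 5 sites in 7.85 kb (chr11:94801676-94809523), none with a KI summit. Tpm1, Tpm2 and Lmod1 had 1 contractile site each. Fosb had 2, and Tead1 and Klf4 had 3 each, with best scores of 37.0, 29.3 and 17.0.

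Marker lists of other cell types were read in the same way. Beside the 3.29% of all merged sites, gained sites made up 4 of the 49 nearest to epithelial markers (8.16%, 3.22% to 19.2%), 2 each at Cldn3 and Krt8. They were 2 of the 15 nearest to immune markers, Itgam and Cd68 (13.3%, 3.74% to 37.9%), with an interval above 3.29%. Endothelial markers had 1 of 75 (Erg, 1.33%) and muscle and neural markers 1 of 17 (Tubb3, 5.88%), both with intervals that included it. The mirror set had 0 sites at epithelial, immune, or muscle and neural markers and 2 at endothelial ones. At Cldn3, a tight-junction claudin, both merged sites were gained, with 24.8 and 7.09 in MMTV-CAF SG, beside 30.6 and 21.8 in wound-healing SG, 18.4 and 19.3 kb from WT acetylation. H3K4me3 covered a TSS of 6 to 8 of 8 fibroblast markers in every library. Thy1 was without it in MMTV-CAF WT and SG, in wound-healing SG and in KI, and Twist1 in wound-healing WT and in KI, where MEF WT had all 8. It covered 0 to 4 of 14 epithelial, 0 to 2 of 10 endothelial and 0 of 8 immune markers, and 2 to 3 of 11 muscle and neural markers, with Nes in every library and Tubb3 in every one but KI. Epithelial markers with H3K4me3 numbered 4 in wound-healing WT and 2 in wound-healing SG. An H3K27ac summit lay within 1 kb of a TSS of 0 immune markers in WT and 1 in SG for MEF, of 1 and 2 for MMTV-CAF, of 0 and 1 for fibroblasts from healing wounds, and of 1 to 2 epithelial markers in every list. The part of other cells in the gained sites was not tested.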

How the data were processed

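H3K27ac, H3K4me3 and Prrx1 ChIP-seq had been performed in 24 samples, of which 17 had a peak list and 7 were inputs. Trimmomatic, Bowtie (to mm9) and Picard were used by the authors to trim, align and deduplicate reads, and MACS2 made 1 list for each library from it and its own input. A −log10 p-value stands beside each summit position in the deposited H3K27ac and Prrx1 lists. For H3K4me3 the authors deposited broad regions, each with fold over input (a ratio), a −log10 p, a −log10 q and a score made from it. Only the positions, fold and −log10 p were used. The lowest −log10 p was 5.00 in the H3K27ac lists and 3.002 in the Prrx1 lists, the latter below the stated cutoff. Whether the Prrx1 lists pool duplicate ChIPs is not given in the sources used here. Library totals are not part of the lists, so depth is unknown and limits which weak summits were listed.

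Summits within 500 bp of each other were merged. Gained sites within 10 kb were grouped, a distance set after results were seen. Values of a site are the highest −log10 p per list, and the score is the lowest percentile among the SG lists that hold it. A Prrx1 summit within 500 bp of a site, any overlap with an H3K4me3 region and the nearest protein-coding TSS of GENCODE vM1 (same build as mm9) were recorded. Shares have Wilson 95% intervals. No test was made within a fibroblast type, since every group has 1 library. An exact sign-flip test paired the H3K4me3 lists by type. Members and gene lists were chosen with earlier results of these data known. Named sites were the 12 of highest score, the 10 highest with Prrx1, the 10 highest in 3 SG lists and KI, the 8 highest within 1 kb of a TSS and the 5 lowest, their nearest genes, the 6 genes with most sites (1 of them not reported here) and up to 4 genes of each list. The sites named far from WT summits were chosen after their values were seen. Symbols of all list genes matched the annotation except 1 adipogenic gene, 1 mesenchymal factor and 2 immune markers. The merging and motif search recovered planted sites and words in simulated data. Scripts ran in Python 3.11.15, with pandas 2.3.3 for tables, scipy 1.17.1 for intervals, pysam 0.24.0 for sequence, numpy 2.4.6, and matplotlib 3.10.9 for figures. Alternatives were other distances, −log10 p minimums, equal-size lists and leaving out a fibroblast type. Inputs and reads were not used here.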

Additional observations from a re-analysis of the deposited data

Results flagged for a closer look

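The change in H3K4me3 at the recurrently gained sites was in opposite directions between the fibroblast types, and this difference was not tested, since each type and genotype has 1 list. From WT to SG, the share of gained sites under an H3K4me3 region changed by 7.79 percentage points in MMTV-CAF, by 6.32 in wound-healing fibroblasts and by -2.02 in MEF. From MEF WT to KI it changed by -9.32 points. Over all merged sites the changes had the same signs (0.79, 4.20, -2.26 and -6.41 points). The counts of H3K4me3 regions in the lists moved in the same directions, and their part in the result was not tested. The signs were the same with a fold of at least 4 at the summit (4, 4.84, -0.48 and -8.93 points), with an overlap within 1000 bp (8.39, 6.77, -2.17 and -8.81 points) and for sites over 2 kb from any WT acetylation summit (14.2, 4.66, -0.79 and -8.45 points).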

How the results depend on the processing

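The number of gained sites and its ratio to the mirror set depended on the distance and on the lists' lengths. With 100, 500 and 1000 bp on each side of a summit the ratio was 1.32, 2.24 and 2.43, and the last 2 gave 1861 and 1286 sites. With a −log10 p of at least 10 in SG and WT it was 1.84, and with this minimum in the SG lists only there were 1558 sites and the ratio fell below 1, to 0.48, by construction, since SG summits were removed and WT ones were not. With 7 lists cut to the smallest there were 1611 sites and a ratio of 1.06, and with 6 lists cut, 1851 sites and 1.03. All 3 SG lists held 316 sites (ratio 1.90). Without MEF the ratio was 2.19, without wound-healing fibroblasts 1807 sites and 0.96, below 1, and without MMTV-CAF 1957 sites; the cause was not tested.

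The share with a KI summit was 12.3% with 100 bp, 12.1% with 1000 bp, 15.6% and 13.1% with the 2 minimums on −log10 p, 23.0% and 18.2% with 7 or 6 lists cut, 14.6% with 3 SG lists, and 15.6%, 16.6% and 18.2% without MEF, MMTV-CAF or wound-healing fibroblasts. Where the lists or the distance changed, the share over all merged sites was not computed. For Prrx1 the shares in MEF, MMTV-CAF and wound-healing fibroblasts were 0.57%, 1.92% and 1.05% within 250 bp, 1.38%, 5.29% and 3.22% within 1000 bp, 0.27%, 0.81% and 0.21% with a Prrx1 −log10 p of at least 10, and 2.71% in MMTV-CAF with at least 5. For sites over 2 kb from WT summits, a choice made after seeing the data, they were 0.36%, 2.15% and 0.93%, and over 5 kb 0.40%, 2.19% and 0.80%.

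H3K4me3 shares in MEF WT, SG and KI were 13.6%, 13.1% and 4.69% with a fold of at least 4 at the summit, 30.5%, 28.3% and 21.7% within 1000 bp, and 17.7%, 16.9% and 9.24% over 2 kb from WT summits. For MMTV-CAF, WT then SG, they were 22.7% and 26.7%, 47.7% and 56.1%, and 22.7% and 36.9%, and for wound-healing fibroblasts in WT and SG 17.1% and 21.9%, 29.99% and 36.8%, and 18.8% and 23.5%. The TSS share was 23.5% with 2.5 kb and 14.6% over 5 kb from WT summits. Any motif word stood at 23.0% of sites with 50 bp and 79.9% with 250 bp on each side, and each of the 12 words rose with the window. Of 105 alternative values 14 stayed within the counting interval or within 1.5 times the count. No paired analysis was possible within a fibroblast type because every group has 1 library. With WT and SG H3K4me3 lists paired by type, a choice made after seeing the data, the mean change at gained sites was 4.03 ± 5.29 points (SD, n = 3 types, 2 of 3 higher in SG; exact two-sided sign-flip test, p = 0.5), and 3.12 ± 3.49 points beyond the change over all merged sites (3 of 3 higher, exact p = 0.25, the smallest that 3 pairs allow). Depth limits which weak summits were listed, and an absent summit is not an absent mark.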
